A study of Mus musculus with 20 samples.

Results

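The megalin-cubilin endocytosis genes are 6 genes, picked by symbol, that build and run the receptor route by which the kidney proximal tubule takes back filtered protein: Lrp2, Cubn, Amn, Dab2, Clcn5 and Ocrl. All 6 were found among the 47069 Ensembl genes of the count table and in the FPKM table, and all 6 passed the filter on low counts. Whole kidney RNA of 20 male mice of the strain 129SJ x C57Bl/6J was sequenced at 15 weeks of age, and the study asked how an anti-microRNA and an ACE inhibitor move gene expression in Alport kidney. The WT group held 5 wild-type mice that received no treatment. The other 15 mice were Col4a3-/-, which lack the alpha 3 chain of type IV collagen and develop the kidney disease of Alport syndrome. From 5 weeks of age, 6 of them were given PBS (Veh), 6 were given Lademirsen, an antisense oligonucleotide against miR-21, at 50 mg/kg (Anti-miR-21), both by weekly injection under the skin, and 3 were given ramipril, an ACE inhibitor, at 11 mg/L in drinking water (ACEi). The library table gives ramipril as 4 mg/kg. In the lifespan study, per the methods, ACEi mice also had weekly PBS injections. The methods state that the satellite males used for RNA-seq had the treatments already described. None of these 20 mice had both drugs. The knockout is in all cells, and whole kidney RNA mixes glomeruli, tubules and interstitium.

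Megalin, encoded by Lrp2, is a giant apical receptor that binds albumin, vitamin-carrier proteins, hormones and many small filtered proteins. Cubilin, encoded by Cubn, has no membrane span of its own and reaches the brush border together with amnionless, encoded by Amn. Dab2 is the adaptor that couples the receptor tails to the clathrin machinery, Clcn5 encodes the endosomal chloride-proton exchanger mutated in Dent disease, and Ocrl encodes an endosomal phosphoinositide phosphatase mutated in Lowe syndrome and in a second form of Dent disease.

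On GRCm38, Lrp2 (ENSMUSG00000027070) lies at chr2:69424340-69586065 and Cubn (ENSMUSG00000026726) at chr2:13276338-13491813, both on the minus strand. Amn (ENSMUSG00000021278) lies at chr12:111271095-111276426 and Dab2 (ENSMUSG00000022150) at chr15:6299788-6440712, both on the plus strand. The remaining 2 genes are X-linked, Clcn5 (ENSMUSG00000004317) at chrX:7153810-7319358 on the minus strand and Ocrl (ENSMUSG00000001173) at chrX:47912387-47965868 on the plus strand. Exons of Cubn overlap Gm13270 and those of Dab2 overlap Gm18888, each on the opposite strand. Gm13270 had a median of 7 counts per library, Gm18888 has no value here, and whether the counting used strand is not given in the sources used here.

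The 3 receptor genes fell most in untreated disease, and their RefSeq promoters (build GRCm38.p6, 250 bases before to 50 bases after the start site, printed in the direction of transcription) are shown for that reason. Capitals mark GC boxes (GGGCGG on either strand). The windows are chr2:69585980-69586279, minus strand, for Lrp2, chr2:13491827-13492126, minus strand, for Cubn, and chr12:111270846-111271145, plus strand, for Amn. The Cubn window was set by the RefSeq start site and lies wholly upstream of the gene position given above, which is from GENCODE.
Lrp2: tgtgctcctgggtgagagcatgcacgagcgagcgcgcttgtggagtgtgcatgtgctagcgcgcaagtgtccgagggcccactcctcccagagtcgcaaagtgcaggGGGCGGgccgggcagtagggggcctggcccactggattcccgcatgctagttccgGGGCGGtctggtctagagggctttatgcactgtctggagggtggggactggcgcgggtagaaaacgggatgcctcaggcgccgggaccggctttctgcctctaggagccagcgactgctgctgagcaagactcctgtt
Cubn: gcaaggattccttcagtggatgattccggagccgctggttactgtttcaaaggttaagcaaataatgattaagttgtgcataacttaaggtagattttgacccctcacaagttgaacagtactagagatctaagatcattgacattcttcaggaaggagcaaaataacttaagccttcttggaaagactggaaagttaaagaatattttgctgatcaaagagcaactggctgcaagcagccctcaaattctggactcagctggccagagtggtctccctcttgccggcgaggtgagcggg
Amn: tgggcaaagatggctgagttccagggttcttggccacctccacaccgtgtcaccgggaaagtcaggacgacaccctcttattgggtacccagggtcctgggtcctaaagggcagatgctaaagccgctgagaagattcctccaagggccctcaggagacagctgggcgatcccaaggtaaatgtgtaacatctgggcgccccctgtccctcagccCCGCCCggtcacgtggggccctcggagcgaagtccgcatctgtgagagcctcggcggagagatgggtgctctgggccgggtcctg
The megalin promoter held 2 GC boxes, the first bases of which lie at -143 and -88, the amnionless promoter held 1 at -35, and the cubilin window held none. CpG pairs numbered 20, 5 and 15 in Lrp2, Cubn and Amn against a median of 7 over the 32851 RefSeq promoter windows. A GC box was present in 35.7% of those windows. Of the other 5 windows of the 6 genes, which were searched but are not printed, Ocrl held GC boxes at -38 and -32, 1 of the 2 Clcn5 windows held a GC box at -114 and the other a TATA box (TATAAA) at -172, and 1 of the 2 Dab2 windows held an HNF1 half-site (GTTAAT) at -65. TATA boxes and HNF1 half-sites were present in 13.6% and 7.10% of all windows. The HNF4 motif (CAAAGTCCA) and the PPAR DR1 motif were in none of the 8 windows, and in 0.475% and 0.0396% of all windows. All motifs were searched on both strands, and none of the 5 overlaps another in these windows.

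The libraries held between 28474301 and 29479629 counts on genes. Col4a3 lay between 194 and 238 CPM in WT mice and between 27.9 and 74.9 CPM in the 15 Col4a3-/- mice. Every library therefore matched its genotype label. CPM here and below are counts scaled to the library size multiplied by a TMM factor. That factor lay between 0.77 and 0.85 in WT mice and between 1.12 and 1.26 in Veh mice. CPM levels therefore differ from counts scaled to library totals alone. The library names begin with 2 different codes, which were read here as flow cells. Flow cell A had 13 libraries (3 WT, 4 Veh, 5 Anti-miR-21, 1 ACEi) and B had 7 (2, 2, 1 and 2). The labels give kidney as the tissue, although their extraction text names adipose tissue. Mean log2 CPM of 10 proximal tubule markers was between 10.24 and 10.73 in WT mice, and that of 4 adipocyte markers ranged from -2.98 to 5.91 among Veh mice. Nothing says whether mice shared litters, so p-values measure the spread between these mice only.

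Megalin had the largest fold change of the 6 genes in untreated disease. Lrp2 stood at 1304, 1388, 1437, 1757 and 1801 CPM in the WT mice and at 179.7, a median of 284.5 and 459.7 CPM from the lowest to the highest Veh mouse. The groups were far apart and did not overlap. Means were 1537 ± 226.1 CPM in WT (SD, n = 5) against 292.0 ± 104.9 CPM in Veh mice (SD, n = 6), a 5.26-fold decrease (log2 fold change -2.40, SE 0.20, edgeR quasi-likelihood test, adjusted p = 1.1e-09). Only 2.4% of the 17622 genes tested had a lower fold change.

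The cubilin-amnionless pair fell as well, and unequally. Cubn stood at 301.4, 314.4, 365.8, 376.5 and 447.7 CPM in WT mice and between 72.22 and 133.9 CPM, with a median of 88.50 CPM, in Veh mice, a 3.86-fold decrease (log2 fold change -1.95, SE 0.15, edgeR adjusted p = 5.1e-10). Amn lay between 188.4 and 268.5 CPM in WT and between 68.46 and 111.4 CPM in Veh mice, a 2.46-fold decrease (log2 fold change -1.30, SE 0.12, edgeR adjusted p = 4.4e-09). Neither gene had a Veh mouse within the WT range.

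The adaptor and the chloride-proton exchanger fell less. Dab2, the clathrin adaptor, averaged 586.7 ± 84.36 CPM in the 5 WT mice and 331.0 ± 40.36 CPM (SD) in the 6 Veh mice, with ranges of 481.7 to 685.1 and 292.3 to 392.7 CPM (log2 fold change -0.83, SE 0.10, edgeR adjusted p = 1.8e-07). Clcn5 averaged 99.0 ± 4.106 and 53.48 ± 8.994 CPM, with ranges of 92.14 to 101.8 and 41.46 to 66.62 CPM (log2 fold change -0.89, SE 0.09, edgeR adjusted p = 1.2e-08). With TMM scaling both were a little under 2 times lower, and neither overlapped between the groups. With scaling by library totals alone the log2 fold changes were -0.24 for Dab2 and -0.31 for Clcn5. In FPKM (fragments scaled to gene length and library total) both overlapped. Dab2 ranged from 110.7 to 144.4 FPKM in WT and 94.88 to 118.5 in Veh mice, and Clcn5 from 2.294 to 3.248 and 1.75 to 2.842.

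Ocrl, the phosphatase, moved in the opposite direction. It stood at 17.06, 17.21, 17.66, 18.96 and 19.60 CPM in WT mice and between 21.14 and 23.66 CPM in Veh mice, a 1.25-fold increase (log2 fold change 0.32, SE 0.06, edgeR adjusted p = 0.00013). With TMM scaling this was the smallest of the 6 differences, and 60.7% of the genes tested had a lower fold change. With library totals, at 0.90, it exceeded those of Amn (-0.72), Clcn5 (-0.31) and Dab2 (-0.24) in size. The mouse with the highest Lrp2, Cubn, Amn, Dab2 and Clcn5 among the Veh mice, A16, was the one with the lowest Ocrl.

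Of the 6 genes, 5 were therefore lower and 1 was higher in Veh than in WT mice. Over all genes tested 73.0% were called in this comparison, 34.0% lower and 39.0% higher. For 54.9% the ranges of TMM-scaled CPM did not overlap between the groups (26.1% lower, 28.8% higher), against 6 of 6 here. The median log2 fold change of the 6 genes was -1.09 and that of all genes 0.07. In whole kidney, fewer cells of a type and less RNA per cell cannot be told apart. Leaving out A16 moved Lrp2 to -2.57 and Cubn to -2.08. Within flow cell A the log2 fold changes of Lrp2 and Cubn were -2.81 and -2.28, and within flow cell B -1.73 and -1.37. All 6 genes were called with the same direction within each flow cell; the difference between flow cells was not tested. With scaling by library totals, which moves the median of all genes to 0.65, the directions and calls held, with Lrp2 at -1.82 and Cubn at -1.37.

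**Figure D1:**
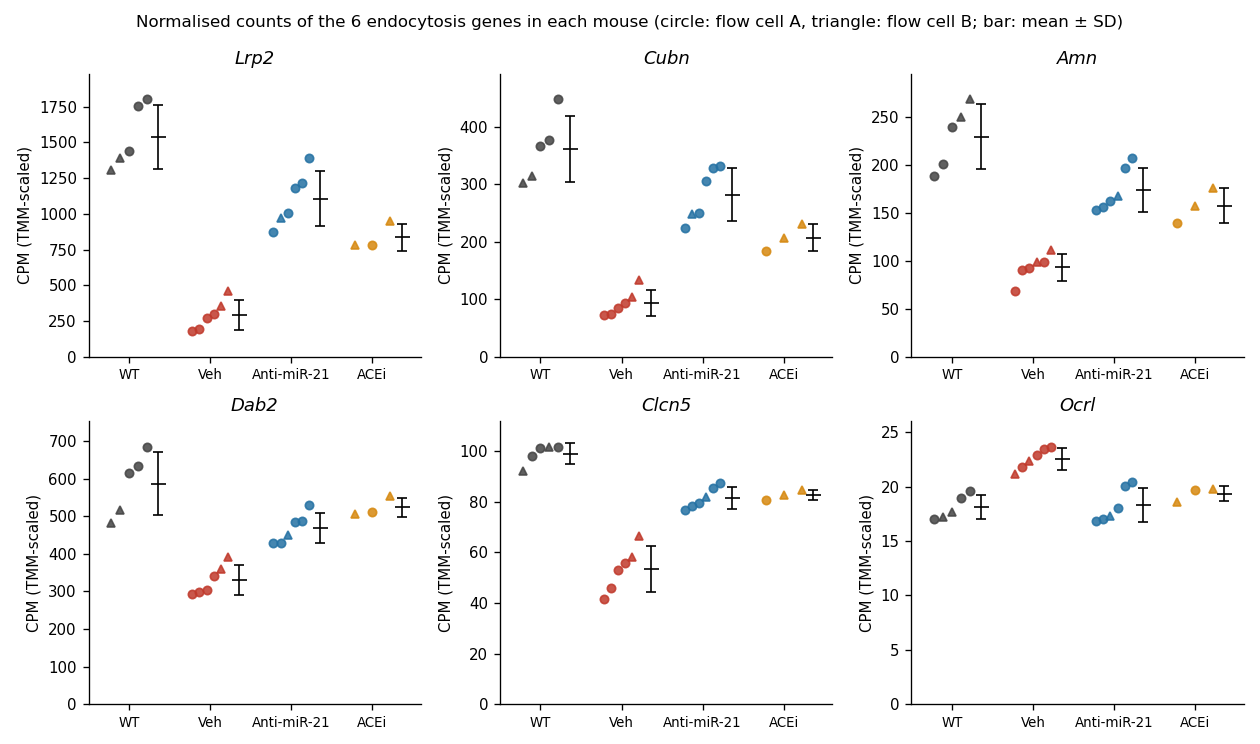
Normalised counts (CPM after TMM scaling, vertical axes from 0) of each of the 6 genes in each of the 20 mice by group, with circles for flow cell A, triangles for flow cell B and bars for the mean ± SD. Lrp2 lay between 179.7 and 459.7 CPM in Veh mice and between 1304 and 1801 CPM in WT mice, whereas Ocrl was higher in all Veh mice (21.14 to 23.66 CPM) than in all WT mice (17.06 to 19.60 CPM).

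Compared per length, the order of the levels in FPKM was the same in WT and Veh mice, while the distances between the genes were not. On the FPKM scale (fragments scaled to gene length and library total), WT means were 129 for Dab2, 112 for Amn, 82.0 for Lrp2, 26.3 for Cubn, 4.78 for Ocrl and 2.79 for Clcn5. The ranges of Dab2 and Amn overlapped, as did those of Amn and Lrp2, and the differences within mice were not tested. Amn stood above Lrp2 in every WT mouse except A6. Dab2 stood above Amn in WT mice A3, A6 and A14, of flow cell A, and below it in A17 and A18, of flow cell B. In Veh mice Dab2 stood at 107 FPKM, Amn at 68.9, Lrp2 at 23.4, Cubn at 10.2, Ocrl at 9.09 and Clcn5 at 2.35, and here the ranges of Cubn (8.04 to 13.5) and Ocrl (7.78 to 9.73) overlapped. Lrp2 had moved out of the range it shared with Amn. The FPKM entries of Clcn5 and Ocrl carry no gene-model length in the deposited annotation, so the length behind their FPKM, and with it their place in the order, is not known. The order was another in the count table: dividing CPM by the kilobases of Ensembl exons gave 8.65 for Clcn5 and 1.91 for Ocrl in WT mice, and 125 for Amn, 92.0 for Lrp2 and 79.9 for Dab2, so the order of these genes depends on the table.

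Ratios within a mouse do not depend on the scaling between libraries, and they measured how unequal the changes were. Dab2 had 0.382 ± 0.0287 counts (SD, n = 5) for each Lrp2 count in WT mice and 1.22 ± 0.325 (SD, n = 6) in Veh mice. The Veh ratios ranged from 0.854 to 1.68, so Dab2 passed Lrp2 in counts on average but not in every mouse. These counts are not scaled to gene length. Cubn stayed closest to Lrp2, at 0.235 ± 0.0164 in WT and 0.333 ± 0.0498 in Veh mice. All 5 genes rose relative to Lrp2 in Veh mice, by 0.49 for Cubn, 1.16 for Amn, 1.56 for Clcn5, 1.64 for Dab2 and 2.78 for Ocrl on the log2 scale. The groups did not overlap for any of the 5 ratios (exact two-sided permutation p = 0.00433 each, the smallest that 5 against 6 mice can give, adjusted over 20 tests to 0.00866). Because Lrp2 fell most of the 6 genes, the direction of these ratios follows from the fold changes above. The 5 tests share Lrp2 as denominator and are not independent of each other.

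**Figure D2:**
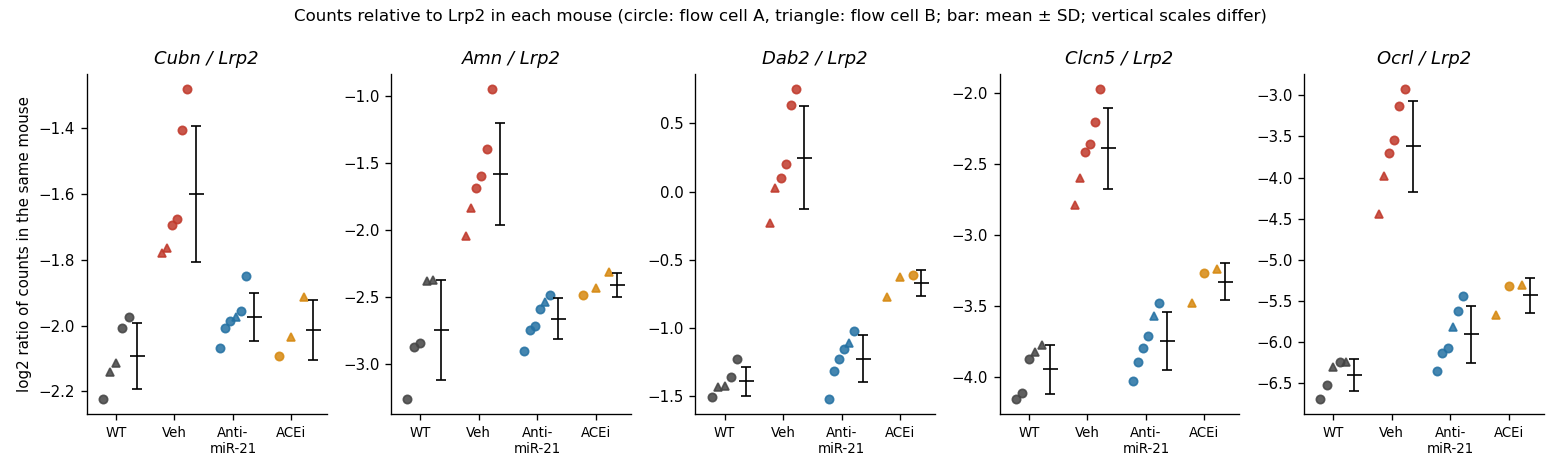
Log2 ratio of the counts of each gene to those of Lrp2 in the same mouse, by group, with circles for flow cell A, triangles for flow cell B and bars for the mean ± SD (the vertical scales of the panels differ). All 6 Veh mice lay above all WT mice in each panel, for Dab2 between -0.23 and 0.75 against -1.51 and -1.23, and the 6 Anti-miR-21 mice lay below all Veh mice.

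The genes were also set against markers of the cell that uses them. Of the 10 proximal tubule markers 9 were lower and 1 was higher in Veh than in WT mice, with a median log2 fold change of -2.53, and their mean log2 CPM fell from a range of 10.24 to 10.73 to one of 7.50 to 9.01. None was at 0, the lowest Veh mean being 27.9 CPM for Slc5a12. Lrp2 minus that mean was 0.11 ± 0.12 (SD, n = 5) in WT and 0.04 ± 0.17 (SD, n = 6) in Veh mice, a difference of -0.08 (exact permutation p = 0.446). With the median of the markers in place of their mean the difference was -0.54 (adjusted p = 0.00974), so whether megalin kept pace depends on the summary used. Relative to the marker mean, Amn was higher in Veh mice by 1.08, Clcn5 by 1.48, Dab2 by 1.56 and Ocrl by 2.70 (exact permutation tests, adjusted p at most 0.0195). Amn, Clcn5 and Dab2 fell less than the markers and Ocrl rose, so the direction of these differences follows from the fold changes. The tests share the marker mean and are not independent of each other. Cubn was higher by 0.41 (exact permutation, adjusted p = 0.0312), but stood at -0.046 against the median of the markers, and without any 1 of WT mice A3, A14, A17 or A18 or Veh mice A1, A4, A9 or A19 its adjusted p was between 0.0536 and 0.0643.

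All 6 genes moved towards WT levels with anti-miR-21. Lrp2 lay between 871.0 and 1390 CPM, with a median of 1094 CPM, in the 6 Anti-miR-21 mice, and the lowest of them had nearly 2 times the level of the highest Veh mouse. The increase over Veh was 3.79-fold (log2 fold change 1.92, SE 0.19, edgeR adjusted p = 1e-07). Cubn lay between 224.6 and 331.2 CPM, a 3.01-fold increase (log2 fold change 1.59, SE 0.15, edgeR adjusted p = 5.9e-08), and Amn between 153.1 and 207.6 CPM, a 1.86-fold increase (log2 fold change 0.90, SE 0.11, edgeR adjusted p = 1.4e-06).

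The intracellular genes followed with smaller steps. Dab2 rose 1.42-fold to a range of 428.5 to 530.4 CPM (log2 fold change 0.50, SE 0.09, edgeR adjusted p = 0.00012), Clcn5 rose 1.53-fold to 76.67 to 87.62 CPM (log2 fold change 0.61, SE 0.08, edgeR adjusted p = 3.5e-06), and Ocrl fell 1.23-fold to 16.86 to 20.40 CPM (log2 fold change -0.30, SE 0.06, edgeR adjusted p = 0.00021). All 6 genes were thus called against 59.2% of all genes (28.8% higher, 30.5% lower). In TMM-scaled CPM no gene overlapped between the Anti-miR-21 and Veh groups, against 36.4% of all genes without overlap (18.6% higher, 17.9% lower). In FPKM Dab2 (115.8 to 129.6 against 94.88 to 118.5) and Clcn5 (2.459 to 2.967 against 1.75 to 2.842) overlapped. With library totals Dab2 rose by only 0.16 on the log2 scale (adjusted p = 0.066), and the FPKM of Clcn5 gave 0.15 on the log2(FPKM + 1) scale (limma adjusted p = 0.089), so these 2 calls depend on the scaling or the table.

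ACE inhibition moved the same genes in the same directions. Lrp2 stood at 780.3, 780.6 and 946.7 CPM in the 3 ACEi mice, 2.86-fold above Veh (log2 fold change 1.52, SE 0.22, edgeR adjusted p = 2.9e-05). Cubn stood at 183.1, 207.1 and 231.2 CPM, 2.21-fold above Veh (log2 fold change 1.15, SE 0.17, edgeR adjusted p = 3.9e-05), and Amn at 139.4, 157.1 and 175.8 CPM, 1.69-fold above Veh (log2 fold change 0.75, SE 0.13, edgeR adjusted p = 0.00022). In TMM-scaled CPM the receptor genes in all 3 mice were above every Veh mouse and below every WT mouse. In FPKM Amn overlapped WT, at 85.36 to 103.2 with ACEi and 95.28 to 131.0 in WT mice.

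Dab2 stood at 505.5, 512.1 and 552.9 CPM (log2 fold change 0.66, SE 0.11, edgeR adjusted p = 0.00013) and Clcn5 at 80.92, 82.84 and 84.88 CPM (log2 fold change 0.63, SE 0.10, edgeR adjusted p = 6.8e-05), the former inside the WT range and the latter below it. Ocrl stood at 18.54, 19.66 and 19.78 CPM, below every Veh mouse (log2 fold change -0.22, SE 0.07, edgeR adjusted p = 0.021). With library totals all 6 kept their calls, with Amn at 0.48, Dab2 at 0.39, Clcn5 at 0.36 and Ocrl at -0.49. In FPKM the call on Clcn5 was lost (0.21 on the log2(FPKM + 1) scale, limma adjusted p = 0.066). The call on Ocrl depended on single mice: without Veh mouse A1, A4, A9, A19 or A20 or ACEi mouse A13 or A23 the adjusted p was between 0.051 and 0.12. All 6 genes were called against 40.1% of all genes (21.0% higher, 19.1% lower). In TMM-scaled CPM all 6 were without overlap against 38.6% (19.8% higher, 18.8% lower), while in FPKM Clcn5 overlapped. Within flow cell B, with 2 mice in each group, the 3 receptor genes were called, with Lrp2 at 1.09 (adjusted p = 0.028), and Dab2 (0.50, adjusted p = 0.060), Clcn5 (0.43, adjusted p = 0.061) and Ocrl (-0.18, adjusted p = 0.32) were not. The share of all genes called in that fit is not reported here. Both treatments were compared with the same 6 Veh mice, so their folds are not independent of each other.

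**Figure D3:**
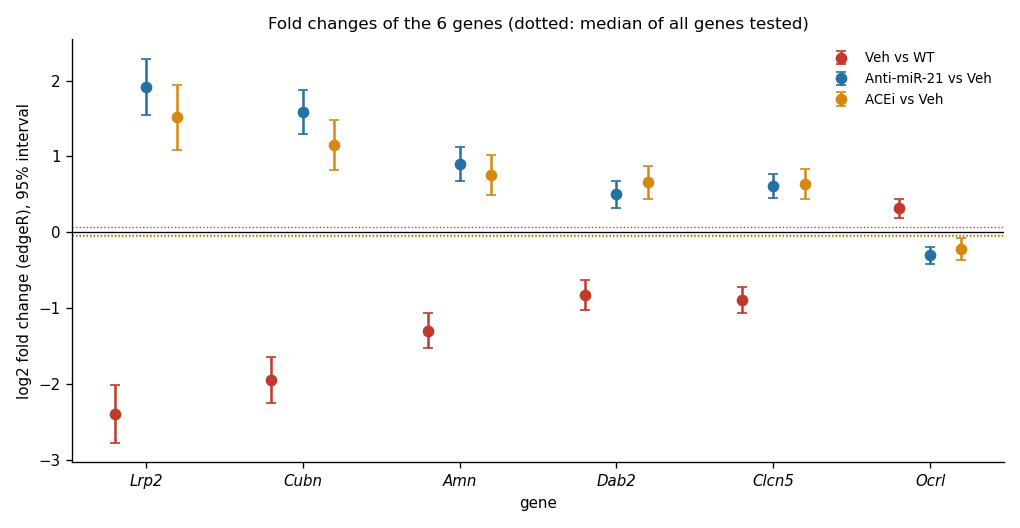
Log2 fold change (edgeR, vertical axis) of each gene with its 95% interval in 3 comparisons, with dotted lines at the median of all genes tested (0.07, -0.04 and -0.05). Lrp2, at -2.40, 1.92 and 1.52, had the longest steps in each comparison, and Ocrl, at 0.32, -0.30 and -0.22, ran the other way.

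On the log2 CPM scale, with the Veh mean set at 0% and the WT mean at 100%, the Anti-miR-21 mice stood at 80.5 ± 10.0% (SD, n = 6) for Lrp2, 81.6 ± 12.2% for Cubn and 69.5 ± 14.1% for Amn. The ACEi mice stood at 64.5 ± 6.54% (SD, n = 3) for Lrp2, 59.6 ± 8.56% for Cubn and 58.7 ± 12.8% for Amn. For Dab2 the order was the other way, 61.6 ± 14.7% with anti-miR-21 and 81.4 ± 8.49% with ACEi, and Clcn5 stood at 69.1 ± 8.32% and 71.7 ± 3.81%. Mice differed within a group. Over the 6 genes the median position was 92.1% in the most restored Anti-miR-21 mouse, A22, and 57.6% in the least restored, A2, with the ACEi mice at 60.4%, 61.3% and 73.8%. The distance of Ocrl is short, and its positions spread from 45.0% to 131% with anti-miR-21.

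**Figure D4:**
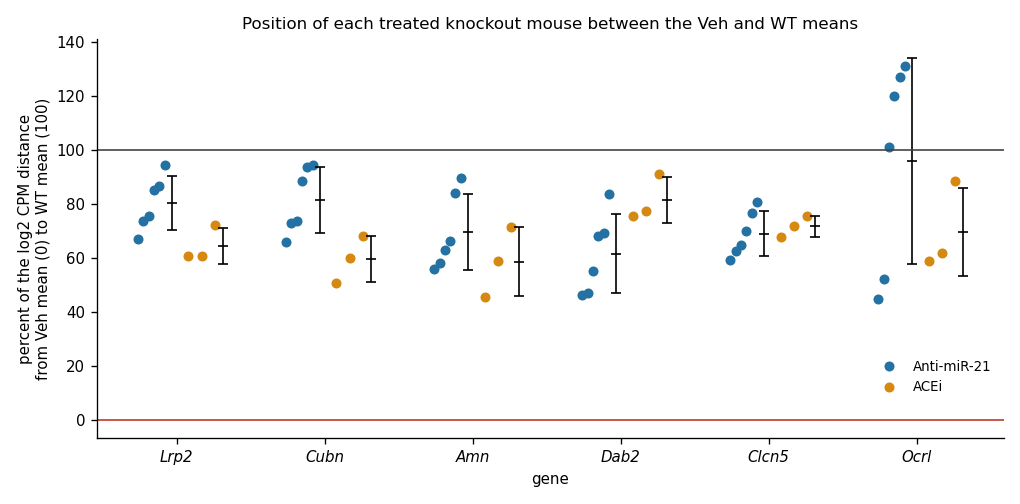
Position of each treated Col4a3-/- mouse between the Veh mean (0%) and the WT mean (100%) on the log2 CPM scale for each gene, with bars for the mean ± SD. For Lrp2 the 6 Anti-miR-21 mice lay between 67.2% and 94.6% and the 3 ACEi mice between 60.7% and 72.1%; for Dab2 the ACEi mice lay between 75.4% and 91.1%.

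The 2 treatments were then compared with each other. None of the 6 genes was called by edgeR or by DESeq2, against 0.584% of all genes by edgeR (0.363% higher, 0.221% lower with anti-miR-21). In TMM-scaled CPM none was without overlap, against 8.99% (4.19% higher, 4.80% lower). In FPKM Cubn was without overlap, at 20.73 to 26.61 with anti-miR-21 and 16.67 to 20.2 with ACEi. So was Dab2 in FPKM, at 115.8 to 129.6 and 138.8 to 144.0. At an unadjusted p under 0.05 edgeR held 1 of the 6 genes, Cubn, and 2562 of all genes. Cubn differed by 0.44 (95% interval 0.09 to 0.79, edgeR adjusted p = 0.26) in favour of anti-miR-21, and Lrp2 by 0.40 (95% interval -0.04 to 0.85, edgeR adjusted p = 0.43). For Dab2 the difference was -0.16 (95% interval -0.38 to 0.06) and for Clcn5 -0.02 (95% interval -0.22 to 0.18). The intervals for the receptor genes leave room for differences of up to 0.85, and those for Clcn5 and Ocrl (-0.22 to 0.06) for smaller ones.

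The whole-kidney ratio of Dab2 to Lrp2 counts did differ between the treatments, although edgeR called neither gene alone. The part of different cell types in this ratio was not tested. Dab2 had 0.430 ± 0.0503 counts for each Lrp2 count (SD, n = 6) with anti-miR-21, near the WT value, and 0.629 ± 0.0395 (SD, n = 3) with ACEi. On the log2 scale the ratio was lower with anti-miR-21 by 0.56, and the 9 mice did not overlap (exact permutation p = 0.0238, the smallest that 6 against 3 mice can give, adjusted over 20 tests to 0.0298). Without any 1 ACEi mouse the difference was between -0.61 and -0.52 (exact permutation, adjusted p = 0.0794 to 0.0893), where 6 against 2 mice cannot go below an unadjusted p of 0.0714 and so cannot pass. The same difference was -0.25 for Amn and -0.42 for Clcn5 (exact permutation, adjusted p = 0.0529 each), -0.48 for Ocrl (adjusted p = 0.0752) and 0.04 for Cubn (adjusted p = 0.50). Against Veh, all 5 ratios to Lrp2 fell with anti-miR-21, by 0.37 for Cubn to 2.29 for Ocrl (exact permutation p = 0.00216, adjusted p = 0.00866 each), and with ACEi, by 0.41 for Cubn to 1.81 for Ocrl (exact permutation p = 0.0238, adjusted p = 0.0298 each). Lrp2 rose most of the 6 genes with either drug, so the direction of these falls follows from the fold changes.

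Beside these values, the 10 proximal tubule markers rose with treatment, 9 of 10 with anti-miR-21 (median log2 fold change 1.69) and 10 of 10 with ACEi (1.62), to mean log2 CPM of 9.55 to 10.16 and 9.81 to 10.08. Relative to that mean, Lrp2 rose by 0.19 with anti-miR-21 (exact permutation, adjusted p = 0.0317, and between 0.0536 and 0.0633 without any 1 of Veh mice A4, A9, A16 or A20 or Anti-miR-21 mice A10, A15 or A22) and fell by 0.25 with ACEi (adjusted p = 0.0306). The second of these turned to 0.17 with the median of the markers (exact permutation, adjusted p = 0.139). Dab2 fell relative to the markers by 1.28 and 1.17 (exact permutation, adjusted p = 0.00974 and 0.0306). Dab2 itself rose with both drugs and the markers rose more, so this direction follows from the fold changes. The same difference with anti-miR-21 and ACEi was -0.88 and -1.08 for Amn, -1.16 and -1.19 for Clcn5, and -2.09 and -2.06 for Ocrl. For Cubn it was -0.18 and -0.67. The part of the number of tubule cells in these results was not tested.

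Compared with WT, both treated groups remained short of full restoration for some genes. With anti-miR-21, Amn (log2 fold change -0.40, adjusted p = 0.0096), Dab2 (-0.32, adjusted p = 0.011) and Clcn5 (-0.28, adjusted p = 0.013) were lower than in WT, 3 of 6 genes against 43.7% of all genes (23.9% higher, 19.8% lower). In TMM-scaled CPM 1 gene, Clcn5, was without overlap against 23.8% (14.7% higher, 9.06% lower), while in FPKM it overlapped. Lrp2 lay at -0.48 with an adjusted p of 0.05003 and Cubn at -0.36 with 0.056, on the edge of the threshold: without WT mouse A17 or Anti-miR-21 mouse A22 both were called, and DESeq2 also called both (adjusted p = 0.026 and 0.033). With library totals none of these 5 genes was called. With ACEi, Lrp2 (-0.88, adjusted p = 0.0049), Cubn (-0.80, adjusted p = 0.0015) and Amn (-0.54, adjusted p = 0.0043) were lower than in WT, 3 of 6 against 47.7% (25.2% higher, 22.5% lower). Clcn5 at -0.26 (adjusted p = 0.051) and Dab2 at -0.16 (adjusted p = 0.27) were not called. In TMM-scaled CPM 4 of the 6 genes were without overlap against 46.1% (23.9% higher, 22.3% lower), of which Amn and Clcn5 overlapped in FPKM. Without WT mouse A17 the difference of Clcn5 passed the threshold (adjusted p = 0.044). Ocrl stood 0.01 above WT with anti-miR-21 (adjusted p = 0.87) and 0.09 above with ACEi (adjusted p = 0.32), but was called higher than in WT with library totals, by 0.26 (adjusted p = 0.024) and 0.41 (adjusted p = 0.0045). In the limma fits on FPKM it was likewise called higher, by 0.23 to 0.27 and 0.35 to 0.40. Amn with ACEi lost its call with library totals (-0.23, adjusted p = 0.12). All adjusted p-values in this paragraph are from edgeR unless another tool is named.

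Among the Veh mice the genes varied together to different degrees. Across the 6 Veh mice, log2 CPM of Cubn followed that of Lrp2 with Pearson's r of 0.97 (exact permutation, adjusted p = 0.0208) and Spearman's rho of 0.94 (adjusted p = 0.0556), and Clcn5 with the same r, rho and adjusted p-values. Without A16 and A9, the mice farthest from the median of Lrp2, r was 0.98 for both. The relation of Clcn5 was not seen in FPKM, where r was 0.24. Neither Amn (r = 0.73, adjusted p = 0.139), Dab2 (r = 0.88, adjusted p = 0.0625) nor Ocrl (r = -0.55, adjusted p = 0.271) passed the exact permutation test over 10 relations. The 2 Veh mice of flow cell B, at 352.8 and 459.7 CPM of Lrp2, were the highest of the 6, and flow cell A held only 4 of the Veh mice, under the minimum of 6 set for a correlation, so the relation was not tested within a flow cell. Within the Anti-miR-21 group none of the relations passed, the closest being Cubn (r = 0.96, exact permutation, adjusted p = 0.0509; rho = 0.94, adjusted p = 0.0556; r = 0.95 without A22 and A8).

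Genes with the profile most like each of the 6 over the 20 mice were found by the root mean square difference of log2 CPM after centring, among 15321 protein-coding genes. Lrp2 was closest to Abat (difference 0.114), Mep1a, a meprin protease of the brush border (0.122), and Slc6a20b, an imino acid transporter (0.122), and stood at 0.234 from Cubn. Cubn was closest to Acot4 (0.112), Slc3a1, the cystine transporter subunit (0.124), and Pyroxd2 (0.125). Amn was closest to the mitochondrial chaperonin Hspe1 (0.0950), the nuclear receptor Esrra (0.0990) and Spr (0.102), Dab2 to Decr2 (0.0790), Mfsd1 (0.0810) and Ap5m1 (0.0820), and Clcn5 to the sorting nexin Snx6 (0.0750), Mindy2 (0.0830) and Lrrc8d (0.0870). Ocrl, which varied least (SD 0.159), was closest to Ano6 (0.0710), Trim3 (0.0770) and Trim26 (0.0780).

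The rest of the route was described by 7 lists with 86 genes. In Veh against WT, 20 were higher, 48 lower and 18 not called, with a median log2 fold change of -0.40, but 46 were higher and 22 lower with library totals, so the majority depends on the scaling. Over all genes 39.0% were higher and 34.0% lower. Endosome acidification and ion exchange, the proton pump subunits and exchangers that work beside Clcn5, had 15 of 16 genes lower and 1 higher (median -0.74), and 8 lower with 4 higher when scaled by library totals. The largest decreases there were those of the sodium-proton exchangers Slc9a8 (log2 fold change -2.87, edgeR adjusted p = 1.7e-10) and Slc9a3 (-2.25, adjusted p = 0.00090), and the only increase was that of the pump subunit Atp6v0a1 (0.13, adjusted p = 0.043). Slc9a3 was scarce, at 7.02 ± 4.69 CPM (SD, n = 5) in WT mice.

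Of 14 Rab GTPases and apical recycling genes, 12 were lower and 1 higher (median -0.50), a direction that turned to 7 higher and 4 lower with library totals. Rab11fip3, a Rab11 effector, fell most (-1.66, adjusted p = 3.9e-10), from a WT mean of 690 ± 74.6 CPM (SD, n = 5), followed by Rab38 (-1.17, adjusted p = 3.6e-08), and Rab11b rose (0.22, adjusted p = 0.0013). The clathrin coat and AP-2 list had 2 of 14 higher, 5 lower and 7 not called (median -0.11), and 11 higher and 1 lower with library totals, so no direction can be given for it. Ap2b1 rose by 0.71 (adjusted p = 7e-09) and Hip1r by 0.28 (adjusted p = 0.00034), and Epn1 fell by 0.79 (adjusted p = 1.8e-08) and Cltb by 0.68 (adjusted p = 6e-07). With library totals Epn1 stood at -0.20 (adjusted p = 0.0052) and Cltb at -0.09 (adjusted p = 0.18, not called). Values in this paragraph are log2 fold changes from edgeR in Veh against WT.

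Adaptors and chaperones were split, 4 of 8 higher and 4 lower. Lrpap1, the chaperone that escorts megalin through the secretory route, fell with its client, with 620 ± 31.0 CPM in the 5 WT mice and 166 ± 40.6 CPM (SD) in the 6 Veh mice (log2 fold change -1.91, edgeR adjusted p = 2.4e-10), whereas Appl1 (0.51, adjusted p = 1.3e-06) and Gipc1 (0.48, adjusted p = 2e-05) rose. Inpp5b, a close relative of Ocrl with the same enzyme activity, fell by 1.28 (edgeR adjusted p = 9.1e-09), from 122 ± 5.96 to 50.5 ± 12.1 CPM, while Ocrl rose. Of 11 phosphoinositide enzymes 3 were higher and 4 lower (8 and 1 with library totals). Synj2 rose by 2.67 (edgeR adjusted p = 5.6e-09) and Pip5k1a by 0.40 (adjusted p = 0.0022), and the lipid kinase Pi4ka fell by 1.84 (adjusted p = 8.6e-11) and the phosphatase Mtmr2 by 0.75 (adjusted p = 5.2e-08). With library totals Mtmr2 stood at -0.17 (adjusted p = 0.051, not called).

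Among the kidney transcripts of 12 megalin and cubilin ligands, 6 were higher and 2 lower. Lcn2, the iron-carrier protein used as a marker of tubule injury, rose most, from 3.67 ± 1.75 to 456 ± 177 CPM (log2 fold change 6.95, edgeR adjusted p = 1.4e-11), and Apoe rose by 3.28 (adjusted p = 4e-11). The vitamin B12 carrier Tcn2 fell by 2.08 (edgeR adjusted p = 1.9e-09) and the selenium carrier Selenop by 1.13 (adjusted p = 1.5e-05). Of 11 other uptake receptors 3 were higher and 6 lower (4 and 3 with library totals). Lrp1, a relative of megalin found in many cells, rose by 2.35 (edgeR adjusted p = 5.4e-10) and Lrp8 by 1.33 (adjusted p = 4.9e-05), at 4.45 ± 0.90 CPM (SD, n = 6) in Veh mice, whereas the transferrin receptor Tfrc fell by 2.57 (adjusted p = 8.8e-11) and the folate receptor Folr1 by 1.61 (adjusted p = 8.1e-10). Macrophage markers rose in the same comparison, 5 of 5 with a median log2 fold change of 3.98, as did fibroblast markers, 4 of 4 with 2.93, and their part in these increases was not tested.

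With treatment, 43 of the 86 genes were higher and 18 lower in Anti-miR-21 than in Veh mice, and 44 were higher and 16 lower with ACEi, but with library totals 24 were higher and 40 lower, and 22 higher and 32 lower. Over all genes 28.8% were higher and 30.5% lower with anti-miR-21, and 21.0% and 19.1% with ACEi. The acidification list had 14 of 16 higher and 1 lower with anti-miR-21 (9 and 2 with library totals) and 14 higher and 0 lower with ACEi (10 and 1). Lrpap1 rose by 1.38 (edgeR adjusted p = 9.1e-08) and 1.17 (adjusted p = 2e-05), Slc9a8 by 1.78 (adjusted p = 2.6e-07) and 1.71 (adjusted p = 1.7e-05), and Rab11fip3 by 1.28 (adjusted p = 8.2e-08) and 1.18 (adjusted p = 1.4e-05), with anti-miR-21 and ACEi respectively. Of the Rab list 11 of 14 genes were higher and 0 lower with anti-miR-21, and 11 higher and 1 lower with ACEi, falling to 5 higher with 4 lower and to 4 higher with 2 lower with library totals. Of the ligands 2 were higher and 6 lower with anti-miR-21, Lcn2 by -2.58 (edgeR adjusted p = 4.7e-07), and 3 higher and 5 lower with ACEi, Lcn2 by -2.27 (adjusted p = 0.00013). Tfrc rose by 1.25 with anti-miR-21 (edgeR adjusted p = 2.5e-06), and with ACEi its difference was 0.48 (adjusted p = 0.062). Between the treatments 0 of the 86 genes were called by edgeR.

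The remaining lists had no single direction. The other uptake receptors had 6 genes higher and 3 lower with anti-miR-21 (4 and 5 with library totals) and 4 each way with ACEi (2 higher and 5 lower). For adaptors and chaperones the counts were 3 each way with anti-miR-21, and 4 higher and 2 lower with ACEi (3 higher and 4 lower with library totals). Clathrin coat and AP-2 had 4 higher and 2 lower with either drug (0 higher and 11 or 9 lower with library totals), and the phosphoinositide enzymes had 3 each way with anti-miR-21 and 4 higher and 2 lower with ACEi (1 higher and 7 lower, and 1 higher and 5 lower, with library totals).

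**Figure D5:**
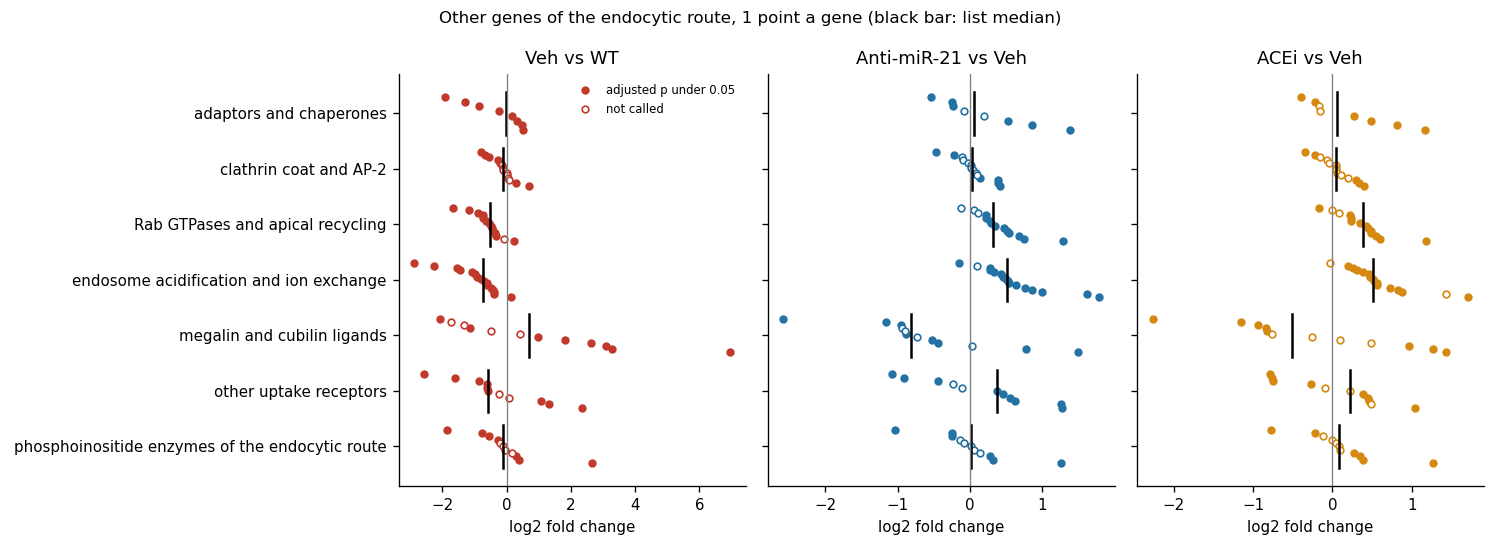
Log2 fold change (horizontal axis) of each of the 86 genes of 7 lists of the endocytic route in 3 comparisons, filled where the edgeR adjusted p was under 0.05, with a black bar at each list median. In Veh against WT 15 of 16 acidification genes lie to the left of 0, with a list median of -0.74, and Lcn2 among the ligands lies farthest to the right at 6.95.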

How the data were processed

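RNA-seq libraries of 20 mouse kidneys were analysed, grouped by GEO's group labels. Per the study's methods, the authors aligned 100 bp paired-end reads of total RNA to GRCm38 with OSA4 in OmicSoft Studio 9.0 and exported gene-level counts. These estimated counts were deposited by the authors for 47069 Ensembl genes with no normalization between libraries, and FPKM values, normalized by the authors for length and library total. The methods name Ensembl R83, while the deposited FPKM annotation mostly names UCSC models. Of the positive counts 29.1% were not whole, and counts were rounded. The FPKM table holds 3 columns that match no labelled mouse and were not used.

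Low genes were dropped by filterByExpr (at least 10 counts, total at least 15). The test used was the edgeR 4.0.16 quasi-likelihood model (R 4.3.3) over all 20 mice with TMM scaling and Benjamini-Hochberg adjustment over 17622 genes, at a threshold of 0.05. SE is the log2 fold change divided by the root of F, and the 95% intervals are 1.96 SE either side. Log2 CPM used a prior count of 2. Ratios and correlations were tested with exact permutation tests (scipy 1.17.1). DESeq2 1.42.0 and limma 3.58.1 on log2(FPKM + 1) were alternatives, the latter also with a pseudocount of 0.1 and with FPKM of at least 1 in 3 mice. In a simulation of Veh against WT with 17247 genes, edgeR recovered 96.4% of 111 genes changed by a log2 fold of 2. It recovered 74.1% of 85 genes changed by 1, and 1.16% of its calls were unchanged genes. In the same simulation of Anti-miR-21 against Veh (17282 genes) and ACEi against Veh (17275 genes) 5.08% and 6.67% of calls were unchanged genes. Only a small share of genes was changed in these simulations, whereas edgeR called 73.0% of genes in the real Veh against WT. The rates were therefore not tested for data in which most genes change, and they do not judge the scaling. The 6 genes, the 7 pathway lists (86 genes) and the 15 marker lists were chosen with earlier results of these data known. The genes named from each list were the 2 that rose most and the 2 that fell most in Veh against WT among those called, and the flow cell B fits and the alternative fits of the lists were added after seeing the data. Gene positions came from GENCODE vM21, and plots were drawn with matplotlib 3.10.9.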

Additional observations from a re-analysis of the deposited data

How the results depend on the processing

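No paired analysis was possible because the mouse names are unique to each mouse and the replicate numbers, given in accession order, pair no mice. In Veh against WT, Anti-miR-21 against Veh and ACEi against Veh the direction of all 6 genes held under every alternative. The count of genes called stayed at 6 when single mice were left out in the first 2 comparisons and ranged from 5 to 6 in the third, where it was 3 within flow cell B. In FPKM, Clcn5 lost its call in Veh against WT with a pseudocount of 0.1 (-0.25) and in ACEi against Veh in all 3 limma fits (0.21 to 0.29). In Anti-miR-21 against WT the count was 1 with library totals and with each of the 3 limma fits on FPKM (the gene called being Ocrl, higher), 5 with only the 2 groups compared and with DESeq2, and 3 to 5 with single mice left out. In ACEi against WT it ranged from 3 to 4, but with library totals and the 3 limma fits the 3 genes were Lrp2 and Cubn, lower, and Ocrl, higher (0.41 and 0.35 to 0.40), with Amn not called (-0.23 and -0.22). Of the 20 ratios to Lrp2, 16 passed, and 10 to 18 with single mice left out, the 10 arising without any 1 of the 3 ACEi mice. On flow cell A alone 5 passed, all in Anti-miR-21 against Veh. The ratios of the ACEi group were not tested there, as flow cell A holds 1 ACEi mouse. In Veh against WT on flow cell A, 3 against 4 mice cannot reach the threshold. Of the 18 differences from proximal tubule markers, 16 passed, and 8 to 16 with single mice left out, the 8 again without any 1 ACEi mouse. With 2 ACEi mice against 6 the smallest p is 0.0714, so no ratio or marker difference of the ACEi group can pass there. Of the correlations 2 passed, and 1 on log2(FPKM + 1).

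Directions changed for the values that follow. For Ocrl in Anti-miR-21 against WT the log2 fold change was -0.0033 with flow cell as a term, -0.0073 with DESeq2, -0.0031 without WT mouse A17, -0.019 without Anti-miR-21 mouse A2 and -0.014 without A8, in a range up to 0.045 with single mice left out. In ACEi against WT, Dab2 was 0.15 and Clcn5 0.056 with library totals, Dab2 was 0.084 within flow cell B, and with limma on log2(FPKM + 1), log2(FPKM + 0.1) and filtered FPKM Dab2 was 0.14 each and Clcn5 0.033, 0.044 and 0.033. Clcn5 in Anti-miR-21 against ACEi was 0.034 with flow cell as a term. Against the median of the markers Cubn was -0.046 in Veh against WT and 0.19 in Anti-miR-21 against Veh, and Lrp2 0.17 in ACEi against Veh; against Slc34a1 and Slc5a2 alone Cubn was 0.095 in Anti-miR-21 against Veh. Correlations with Lrp2 in the Anti-miR-21 group became -0.13 for Dab2 and -0.32 for Clcn5 in FPKM. With library totals the lists whose majority direction turned had, in Veh against WT, 12 (clathrin), 11 (Rab), 7 (uptake receptors) and 9 (phosphoinositide) genes called, in Anti-miR-21 against Veh 11 (clathrin) and 9 (uptake receptors), and in ACEi against Veh 7 (adaptors, also 7 with upper-quartile scaling), 9 (clathrin) and 6 (phosphoinositide). The cause was not tested. The ACEi group of 3 mice and the short distance of Ocrl limit precision.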

Other observations

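The other cell type lists give the setting in which the 6 genes were measured, as counts of genes called by edgeR in Veh against WT. Along the nephron, 5 of 5 markers of the S3 segment of the proximal tubule (median log2 fold change -2.44), 5 of 5 of intercalated cells (-0.97), 4 of 5 of the thick ascending limb (-1.10), 3 of 4 of the distal convoluted tubule (-1.66) and 3 of 4 of collecting duct principal cells (-0.69) were lower. The sizes were not tested against each other. Markers of tubule injury (6 of 6, median 4.0) and T cells (4 of 4, 2.89) were higher, as were 3 of 4 of B and plasma cells (1.65), 3 of 4 of podocytes (0.30), 2 of 4 of endothelium (0.45, with 1 lower), 4 of 4 of adipocytes (3.82) and 1 of the 2 adrenal gland genes tested (1.92, of 4 listed).

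With anti-miR-21, 5 of 6 injury markers were lower than in Veh mice (median -1.13), and 2 of 6 with ACEi (-0.48), while 5 of 5 macrophage markers were lower with either drug (-0.95 and -0.90). Between the drugs 0 of 6 injury markers and 1 of 5 macrophage markers were called.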
